A study of Danio rerio with 6 samples.

Results

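The genes hnf1ba, foxa1 and tfa are best known from the liver, and their transcript levels were examined here in zebrafish testis tissue kept with or without Insl3, a peptide hormone of the insulin and relaxin family that Leydig cells make. The 3 genes are represented by 3 of the 46260 transcripts counted, namely ENSDART00000144138.2 for hnf1ba (gene ENSDARG00000006615), ENSDART00000161844.1 for foxa1 (ENSDARG00000102138) and ENSDART00000163194.1 for tfa (ENSDARG00000016771). They were chosen by gene symbol from the study's list of 409 transcripts, which had been selected on an unadjusted p-value for the comparison of Insl3 with Basal in these same libraries. Their difference between the conditions is therefore given as a description and carries no test. No other transcript of these genes was used here.

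All tissue came from adult wild-type zebrafish and was cultured ex vivo. After 2 days of preincubation without hormone, the Insl3 group (3 testes) received zebrafish Insl3 peptide at 100 ng/mL for 2 days, and the Basal group (3 testes) was cultured without it. Each testis gave 1 RNAseq library. The preincubation, which the study used to let the tissue's own Insl3 decline, was shared by both groups, so the Basal testes were cultured tissue and not freshly collected tissue. Whole tissue was sequenced, so fewer cells of a type and less RNA per cell cannot be told apart.

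The gene hnf1ba encodes a homeodomain transcription factor. Foxa1 is a forkhead transcription factor, known in mammals for binding to closed chromatin and opening it in cells of endodermal origin such as hepatocytes. Transferrin, the product of tfa, is not a transcription factor but the iron carrier of blood plasma. It is made mainly by the liver, and in mammals also by Sertoli cells, which use it to pass iron to germ cells behind the blood-testis barrier.

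Total counts per library ranged from 21178283 to 25472401 in the Insl3 group and from 20967304 to 28939006 in the Basal group. One count was worth 0.0309 to 0.0533 CPM, the count scaled to library size with edgeR's TMM factors, depending on the library. Of the 36363 transcripts that passed the filter on low counts, the quasi-likelihood test of edgeR gave 538 with an unadjusted p under 0.05 when no term for the replicate number was fitted, and 4920 with that number as a block. After Benjamini-Hochberg adjustment over all of them, 0 passed 0.05 in either edgeR fit. DESeq2, which tested 44454 transcripts, gave 644 with an unadjusted p under 0.05 and 1 after adjustment. The block without a filter on low counts gave 195 that passed, and hnf1ba, foxa1 and tfa were not among them. No difference of these 3 genes is therefore called a change. The testis identity of the libraries was not checked, because 0 of 12 testis marker symbols had a matched transcript.

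The transcript of hnf1ba was scarce in all 6 libraries and lower in every Insl3 library than in every Basal library. It had 6, 1 and 2 counts in Insl3 replicates 1, 2 and 3, against 38, 20 and 42 counts in Basal replicates 1, 2 and 3. On the TMM scale these were 0.229, 0.0482 and 0.100 CPM with Insl3 and 1.17, 0.670 and 2.24 CPM under Basal conditions. The lowest Basal library (replicate 2) was 2.92 times the highest Insl3 library (replicate 1), so the groups did not overlap. All 3 Insl3 values were below all 3 Basal values for 2.66% of the transcripts tested.

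The mean level of hnf1ba was 0.126 ± 0.0933 CPM with Insl3 and 1.36 ± 0.802 CPM under Basal conditions (SD, n = 3 each), and the edgeR fit gave a log2 fold change of -3.32 with a standard error of 0.72. It was the most negative fold change of the 398 listed transcripts that passed the filter, of which 211 were lower with Insl3. This rank is a description only, because the list was selected on this comparison and hnf1ba passed the filter through the Basal group alone. Of the Insl3 libraries, 2 held only 1 and 2 counts of hnf1ba. The Insl3 to Basal ratio within a pair of same-numbered libraries was therefore poorly bounded from below. The Insl3 library had 19.6% of the Basal level in pair 1 (95% interval 6.76 to 46.6%), 7.19% in pair 2 (0.173 to 44.9%) and 4.47% in pair 3 (0.525 to 17.2%). These exact intervals cover counting error only. In all 3 pairs the interval lay below 100%, which is no test, because hnf1ba was chosen from a list selected on this comparison.

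Basal replicate 3 was the highest library for hnf1ba, but did not set its difference alone. It held 54.9% of the summed Basal CPM and stood 2.43 times above the mean of Basal replicates 1 and 2. Without it the log2 fold change was -2.78, and without the third library of both groups it was -2.66. The lowest value, -4.10, came without Insl3 replicate 1, the library that held 6 of the 9 Insl3 counts. The transcript passed the filter on low counts only through the Basal group, where it is high.

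The pattern of foxa1 was that of a single library. Its counts were 6, 4 and 5 in Insl3 replicates 1, 2 and 3, against 18, 1 and 81 in Basal replicates 1, 2 and 3. In CPM, the Insl3 libraries had 0.229, 0.193 and 0.251, while the Basal libraries had 0.556, 0.0335 and 4.32. The Insl3 values lay close together (highest 1.30 times the lowest), whereas the Basal values spanned a factor of 129. That factor rested on the 1 count in Basal replicate 2. Basal replicate 2 lay below and Basal replicate 3 above every Insl3 library. The groups overlapped.

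The filter on low counts removed foxa1, so its fold change was taken from the edgeR fit without a filter, which gave -2.81 on the log2 scale with a standard error of 1.32. The mean was 0.224 ± 0.0293 CPM with Insl3 and 1.64 ± 2.34 CPM under Basal conditions (SD, n = 3 each). Basal replicate 3 held 88.0% of the summed Basal CPM of foxa1 and was 14.7 times the mean of Basal replicates 1 and 2. Without that library the log2 fold change of foxa1 was -0.42, and without the third library of both groups -0.52. Within pairs, the Insl3 library had 41.3% of the Basal level in pair 1 (95% interval 13.4 to 109%) and 5.80% in pair 3 (1.83 to 14.1%). In pair 2 the direction was the opposite, with an Insl3 to Basal ratio of 5.75 that rested on 4 counts against 1 and had an interval of 0.569 to 283. A lower level of foxa1 with Insl3 was thus beyond counting error in pair 3 alone. With the replicate number as a block, the unfiltered fit gave a log2 fold change of -2.00 with a standard error of 0.88.

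Transferrin transcript was well covered, and its differences within pairs were far larger than counting error. The tfa counts were 641, 1172 and 130 in Insl3 replicates 1, 2 and 3, against 2127, 3078 and 8674 in Basal replicates 1, 2 and 3. These were 24.5, 56.4 and 6.51 CPM with Insl3 and 65.6, 103 and 463 CPM under Basal conditions. The groups did not overlap, but the lowest Basal library (replicate 1) was only 1.16 times the highest Insl3 library (replicate 2). The third pair held both extremes, the lowest Insl3 and the highest Basal value.

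The mean level of tfa was 29.2 ± 25.3 CPM with Insl3 and 210 ± 219 CPM under Basal conditions (SD, n = 3 each), and its log2 fold change was -2.85 with a standard error of 0.96. The Insl3 library had 37.3% of the Basal level in pair 1 (95% interval 34.1 to 40.8%), 54.7% in pair 2 (51.1 to 58.6%) and 1.41% in pair 3 (1.17 to 1.67%). Depth was therefore not what limited tfa, and the pairs differed from one another by more than counting error. Basal replicate 3 held 73.3% of the summed Basal CPM, 5.48 times the mean of Basal replicates 1 and 2. Without it the log2 fold change of tfa was -1.53, and without the third library of both groups it was -1.06. Leaving out Insl3 replicate 2, the highest Insl3 library, gave -3.77.

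**Figure D1:**
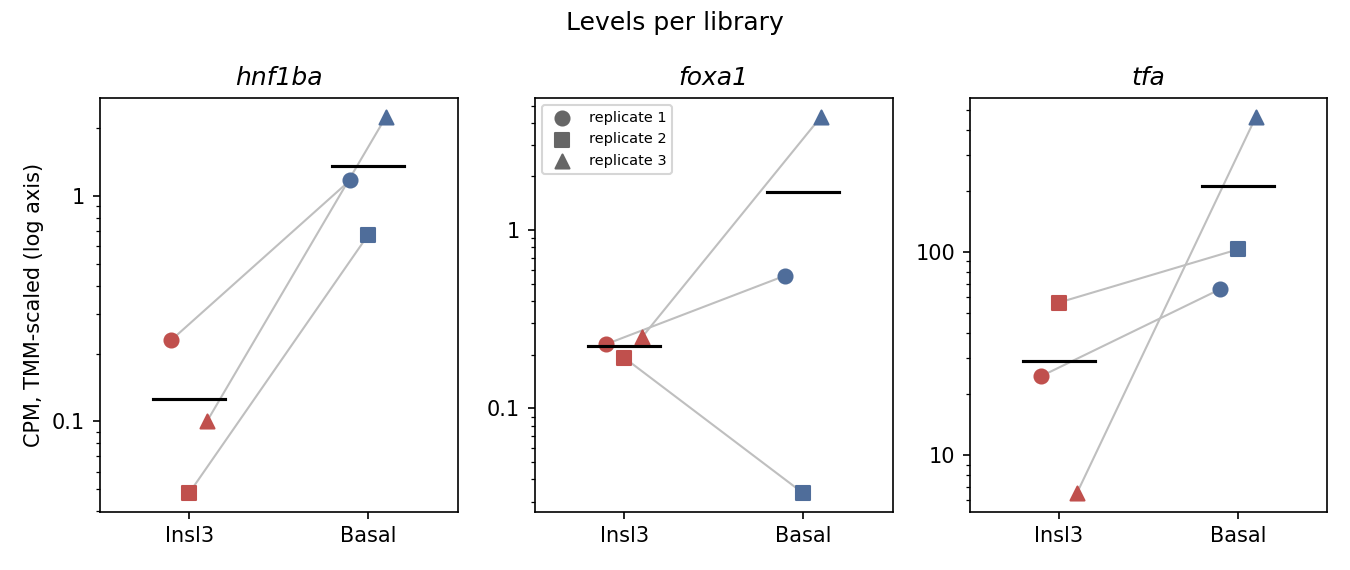
CPM (TMM-scaled, log axis with its own range in each panel) of hnf1ba, foxa1 and tfa in each library, Insl3 left and Basal right; marker shapes give the replicate number, grey lines join libraries of the same number and black bars are group means. The groups are apart for hnf1ba and overlap for foxa1 (0.0335 CPM, or 1 count, in Basal replicate 2). For tfa they are spread most widely by pair 3 (6.51 against 463 CPM).

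Of the 3 transcripts, hnf1ba and tfa passed the filter, and both were among the transcripts lower with Insl3 at an unadjusted p under 0.05, a group that held 0.938% of all transcripts tested without the replicate block. With the block, both were again among them, and the group held 6.13% of all transcripts tested. Nothing is read from these counts, because the list the genes came from was selected on this comparison.

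The weight of Basal replicate 3 was compared with its weight in all transcripts tested, and was greatest in foxa1 and tfa. Across the 36363 transcripts tested, the log2 CPM of Basal replicate 3 minus the mean of the other Basal libraries had a median of -5e-04 and a 95th percentile of 1.42. The same difference was 1.26 for hnf1ba, 4.03 for foxa1 and 2.49 for tfa. It was larger than in hnf1ba for 6.42% of the transcripts tested, larger than in tfa for 1.51% and larger than in foxa1 for 0.632%. The filter had removed foxa1 from that set. The ratio of Basal replicate 3 to the mean of the other Basal libraries was also compared among the 211 listed transcripts lower with Insl3. It was larger than in hnf1ba for 43 of them and larger than in tfa for 10. Nothing is read from these shares, because selection on this comparison favors high Basal values among lower transcripts. Basal replicate 3 was at least 4 times every other library for 331 transcripts tested (0.910%), and for tfa it was 4.49 times the next library. For foxa1 it was 7.78 times and for hnf1ba 1.91 times the next library.

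**Figure D2:**
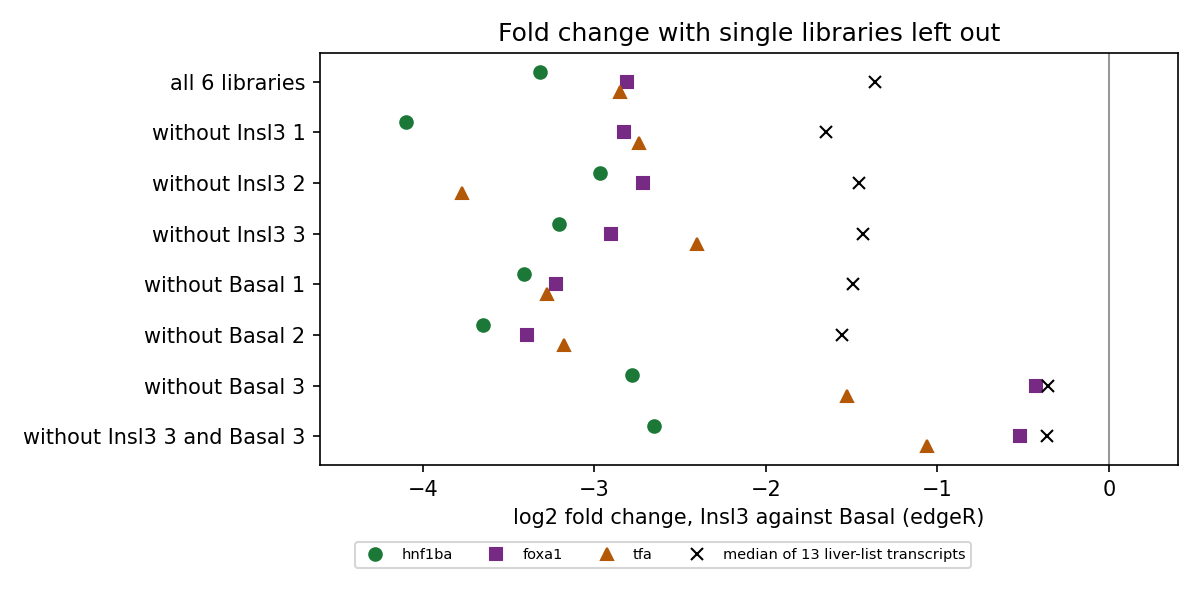
Log2 fold change of Insl3 against Basal (edgeR; foxa1 without a filter on low counts) for hnf1ba, foxa1, tfa and the median of 13 transcripts of the liver list, with all 6 libraries and with libraries left out. Without Basal replicate 3 hnf1ba stays at -2.78, whereas foxa1 is at -0.42, tfa at -1.53 and the liver list median at -0.35.

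The 3 transcripts were compared with each other over the 6 libraries, which share depth, scaling and the extreme of Basal replicate 3. The Pearson correlation of log2 CPM was 0.77 between hnf1ba and tfa, 0.63 between hnf1ba and foxa1 and 0.57 between foxa1 and tfa, and the last had a Spearman correlation of only 0.20. Among 387 other tested transcripts with a gene symbol, all from the list selected on this comparison, the profile most like hnf1ba was that of etfa, a subunit of the electron transfer flavoprotein of mitochondria (r = 0.98). It was followed by phlpp2, a phosphatase that acts on Akt (r = 0.98), the clock-related transcription factor npas2 (r = 0.97), tgfbi, a protein of the extracellular matrix (r = 0.96), and vmp1, a membrane protein of autophagy (r = 0.96). The fold changes of these 5 were smaller, from -1.13 for tgfbi to -0.49 for etfa on the log2 scale.

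For tfa the nearest profile among the 387 other tested transcripts with a symbol was that of cyp51, an enzyme of sterol synthesis (r = 0.998). Over all transcripts tested, cyp51 ranked 4. It had 53.1, 74.2 and 29 CPM in Insl3 replicates 1, 2 and 3, against 76.3, 86.6 and 173 CPM in Basal replicates 1, 2 and 3. The order of the libraries was thus that of tfa, with the lowest value in Insl3 replicate 3 and the highest in Basal replicate 3. The next were the N-glycan enzyme mgat1b (r = 0.995), the squalene epoxidase sqlea (r = 0.993), the RNA-binding protein cpeb4a (r = 0.989) and the retinoid-related dehydrogenase sdr16c5b (r = 0.984). Their log2 fold changes ran from -1.42 for cpeb4a to -0.79 for mgat1b, against -2.85 for tfa.

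Other genes whose products are made in or act in the liver were taken from a list of 33 symbols, of which 13 had a matched transcript. All 13 come from the list selected on this comparison, so they had to differ in some direction. The 20 symbols without a match were not in that list under the names used here, and their levels were not examined. The 33 symbols were chosen with earlier results of these data known, so the direction of the 13 may follow from that choice. The 13 were all lower with Insl3, with log2 fold changes from -2.96 to -0.92 and a median of -1.36, beside a median of 0.0056 over all transcripts tested and -0.62 over the 398 listed ones. Of the 398, 211 were lower (53.0%), with a median of -1.07. An unadjusted p under 0.05 was found for 5 of the 13 without the replicate block, beside 306 of the 398 listed transcripts and, for lower values, 0.938% of all transcripts tested. With the block it was found for 9 of the 13, beside 6.13% of all transcripts tested. Nothing is read from these counts either. After adjustment 0 passed in either fit, or in the block without a filter. In 3 of the 13 the groups did not overlap, beside 2.66% of all transcripts tested in which every Insl3 value was the lower. Nothing is read from this count.

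As for foxa1 and tfa, the Basal side of the list leaned on 1 library. Its summed level was 78.0, 97.4 and 70.9 CPM in Insl3 replicates 1, 2 and 3, against 102, 110 and 343 CPM in Basal replicates 1, 2 and 3. The largest part of each sum was c1s, with 45.8, 62.95 and 38.6 CPM with Insl3 and 59.7, 64.2 and 155 CPM under Basal conditions. In Basal replicate 3, alas1 added 63.4 CPM. The sums are thus mainly a measure of few genes. Basal replicate 3 was the highest library for 12 of the 13, compared with 109 of the 211 listed transcripts that were lower (51.7%). Over all transcripts tested it was the highest for 16.5%. In 9 of the 13 it was at least 2 times the mean of the other Basal libraries, compared with 55 of the 211 (26.1%). Nothing is read from these shares, because the list was chosen with earlier results of these data known. Without Basal replicate 3 the median log2 fold change of the list was -0.35, with single values from -1.42 to -0.09 and all 13 still negative in the edgeR fit. The mean of log2 CPM without that library was lower with Insl3 for 11 of the 13, the exceptions being gcgra and soat2.

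The 9 transcripts in which Basal replicate 3 stood out, a group defined after their values were seen, include kng1, which encodes the plasma protein kininogen. It had 1.64, 2.99 and 3.71 CPM in Insl3 replicates 1, 2 and 3, against 2.47, 4.36 and 27.6 CPM in Basal replicates 1, 2 and 3. The glucagon receptor gene gcgra had 0.764, 0.385 and 0.601 CPM with Insl3, against 1.05, 0.268 and 8.21 CPM under Basal conditions. In both, the Insl3 values lay within or near the range of Basal replicates 1 and 2, and without Basal replicate 3 their log2 fold changes were -0.28 for kng1 and -0.18 for gcgra. The cholesterol-esterifying enzyme soat2 (-0.29), the ether lipid enzyme agmo (-0.25), uraha of urate breakdown (-0.35) and the complement protease c1s (-0.33) were also near 0 without that library. The tryptophan catabolic enzyme haao (-0.52) and the glutamine transporter slc38a3b (-1.42) remained lower, the second with 1.91, 1.01 and 0.100 CPM with Insl3, against 3.76, 1.64 and 18.7 CPM under Basal conditions.

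In the other 4, Basal replicate 3 was less than 2 times the mean of the other Basal libraries, against 2.43 times for hnf1ba. The largest of these differences was that of the xenobiotic receptor nr1i2, with 0.726, 0.530 and 0.351 CPM in Insl3 replicates 1, 2 and 3, against 1.23, 1.01 and 1.97 CPM in Basal replicates 1, 2 and 3. Its groups did not overlap, and its log2 fold change was -1.36 (standard error 0.47) with all libraries and -1.05 without Basal replicate 3. The cytochrome P450 gene cyp3c1 was separated in the same way, while leap2, an antimicrobial peptide named for its expression in liver, and ggcx, the vitamin K-dependent carboxylase of clotting factors, overlapped. Without Basal replicate 3 these 4 lay between -1.05 and -0.88 on the log2 scale.

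**Figure D3:**
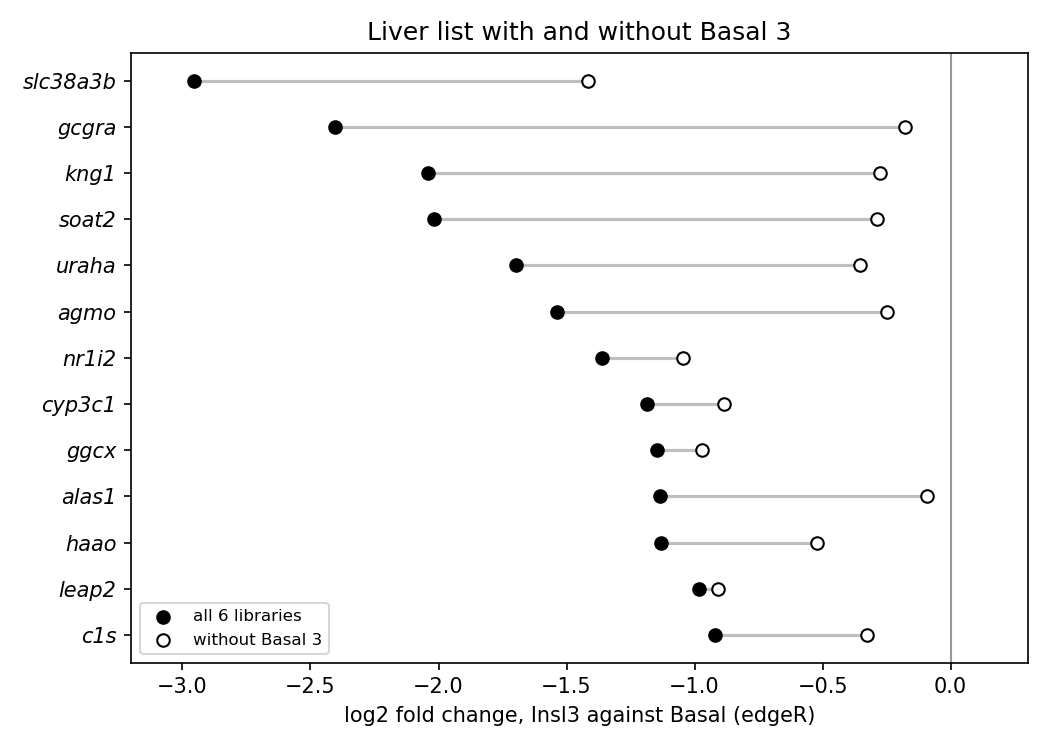
Log2 fold change of Insl3 against Basal (edgeR) for each of the 13 matched transcripts of the liver list, with all 6 libraries (filled) and without Basal replicate 3 (open). All values are below 0; the list median is -1.36 with all libraries and -0.35 without Basal replicate 3.

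The relatives and partners of the transcription factors, such as foxa2 and hnf4a, could not be described, since 0 of 14 symbols were in the study's list. Their levels were not examined. Of 12 iron and heme genes 2 were matched. The first, aco1, encodes cytosolic aconitase, which in mammals doubles as an iron-regulatory protein when its iron-sulfur cluster is absent. It had 27.9, 21.5 and 16.9 CPM in Insl3 replicates 1, 2 and 3, against 43.8, 37.6 and 35.7 CPM in Basal replicates 1, 2 and 3, so that every Insl3 library was lower and Basal replicate 3 was the lowest Basal one. Its log2 fold change was -0.82 with a standard error of 0.23. With the replicate block and no filter, 195 of 44942 transcripts passed adjustment in edgeR, 14 of them from the study's list. Of the transcripts in the gene and marker lists, 1 was among them, namely aco1. It did not pass adjustment in either edgeR fit with the filter. Nothing is read from its passing, because aco1 was matched through the list selected on this comparison. The second, alas1, the first enzyme of heme synthesis, had 12, 15.5 and 15.3 CPM with Insl3, against 13.6, 17.1 and 63.4 CPM under Basal conditions, and its log2 fold change of -1.13 was -0.09 without Basal replicate 3.

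Markers of other cell types are given beside these values. None passed adjustment without the replicate block, the summed levels of hepatocyte, intestine, fat and white blood cell markers overlapped between the conditions, and their part in the values of hnf1ba, foxa1 and tfa was not tested. For hepatocytes 2 of 7 markers were matched (kng1 and leap2), which also belong to the liver list. Their summed level ranged from 2.71 to 7.07 CPM with Insl3 and from 5.77 to 32.2 CPM under Basal conditions. In Basal replicate 3 most of the sum was kng1 (27.6 CPM), whereas leap2 was highest in Basal replicate 2 (5.06 CPM, against 4.64 CPM in Basal replicate 3). None of the matched markers was at 0, and fabp10a, apoa1b, fgb, ttr and ambp, the more abundant hepatocyte markers, had no matched transcript, so the liver-type name of the 3 genes could not be set against them.

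Fat markers were highest in Basal replicate 3 as well, but to unlike degrees. That library was 5.09 times the mean of Basal replicates 1 and 2 for lpl and 2.66 times for pnpla2. It was only 1.98 times that mean for pparg and 1.40 times for mgll. The study proposes that somatic cells of the testis express pparg, so pparg is not a marker of fat alone here. The 4 of 5 that were matched (pparg, lpl, pnpla2 and mgll) all had their highest level in Basal replicate 3. That library was the highest for 16.5% of all transcripts tested and for 51.7% of the listed transcripts lower with Insl3. The sum of the 4 ranged from 11.7 to 21.2 CPM with Insl3 and from 20.3 to 75.7 CPM under Basal conditions. The 4 of 7 intestine markers (gpa33, slc26a3.2, npc1l1 and slc6a19b) summed to between 6.89 and 11.2 CPM with Insl3 and between 9.65 and 17.2 CPM under Basal conditions, with 3 of the 4 highest in Basal replicate 3. The remaining marker, slc6a19b, went the other way (log2 fold change 0.77). It had 3.3 to 7.2 CPM with Insl3, against 2.9 to 3.2 CPM under Basal conditions. Markers of blood and exocrine pancreas did not have their highest level in Basal replicate 3. The 2 of 5 pancreas markers (cel.1 and ela2l) summed to between 2.94 and 4.51 CPM with Insl3, against 1.42 to 1.88 CPM under Basal conditions. The single matched red blood cell marker of 3, slc4a1a, had 3.37 to 5.01 CPM with Insl3 and 1.67 to 1.87 CPM under Basal conditions. The 2 of 4 white blood cell markers went opposite ways, lsp1 being lower with Insl3 (log2 fold change -0.99) and mpx higher (3.02, with overlapping groups), and summed to between 12.7 and 27.5 CPM with Insl3 and between 27.4 and 33.2 CPM under Basal conditions. All of these markers, too, were matched only through the list selected on this comparison, so nothing is read from how many were highest in Basal replicate 3.

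**Figure D4:**
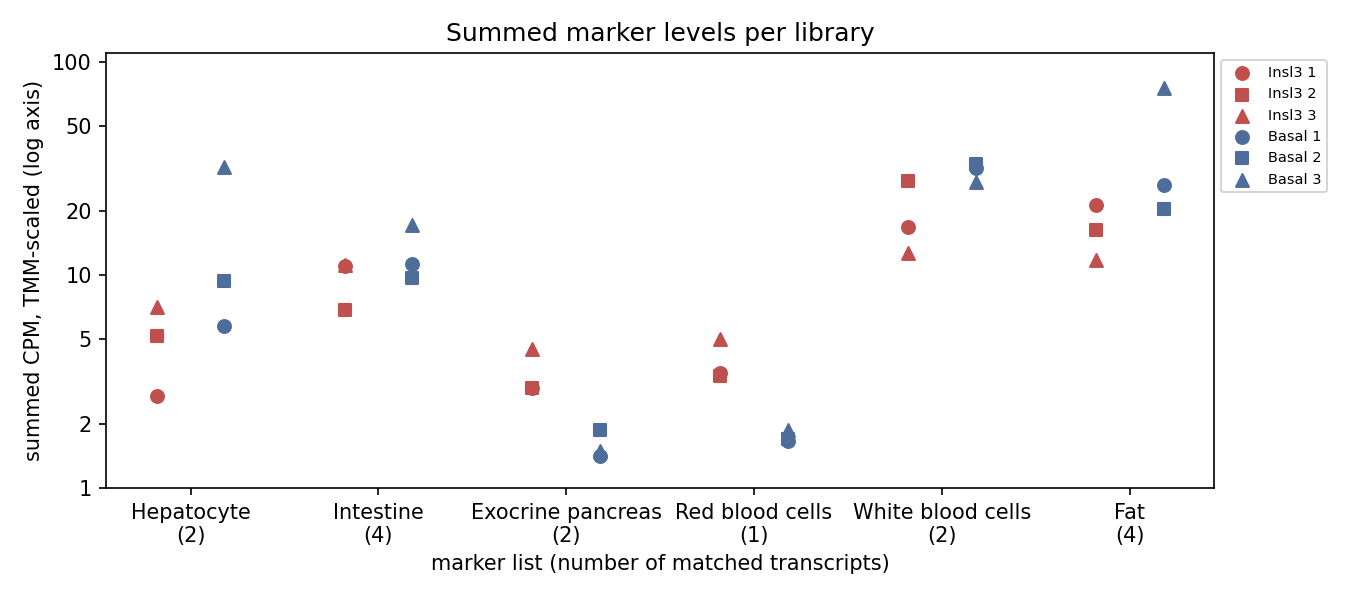
Summed CPM (TMM-scaled, log axis) of the matched markers of each cell type in every library, Insl3 left and Basal right within each list, with the number of matched transcripts in brackets. Basal replicate 3 is the highest library for hepatocyte (32.2 CPM), intestine (17.2 CPM) and fat markers (75.7 CPM) but not for the other lists. In the hepatocyte sum, 27.6 CPM of this is kng1, and in the fat sum 41.6 CPM is lpl. In the intestine list, slc6a19b is higher with Insl3.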

How the data were processed

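RNA of 6 cultured testes (Insl3 1 to 3, Basal 1 to 3, grouped by sample title) was sequenced from unstranded-type TruSeq v2 libraries. According to the submitters' processing notes and the study's methods, the authors aligned reads to GRCz10 with TopHat2 (2.0.12), counted them with HTSeq (0.6.1) and deposited raw whole-number counts per Ensembl transcript. The annotation release, strand setting and counting mode are not given in the sources used here, so overlapping or near-identical transcripts carry an unmeasured uncertainty.

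The counts were filtered with filterByExpr (minimum count 10, default settings), scaled by TMM and tested across 36363 transcripts with the two-sided quasi-likelihood test of edgeR 4.0.16 (R 4.3.3), in a model of condition alone with Benjamini-Hochberg adjustment. Standard errors were derived from the fold change and the F statistic (their ratio, with the root of F). Log2 CPM used a prior count of 2. Intervals of pair ratios are exact conditional binomial intervals (95%). One count was worth at most 0.0533 CPM. The fits were tested on simulated data in which only better covered transcripts were changed. That test therefore says nothing about transcripts as scarce as hnf1ba and foxa1. With differences between pairs, the simulation gave every transcript the same spread, which was not estimated from these data. How the block handles a transcript as variable as tfa was thus not tested.

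Symbols came from the 409 rows of the study's list, 408 with the same transcript version and 1 with another; its columns of fold changes and p-values were not used. Named were the 3 genes, matched members of the gene and marker lists, and the 5 transcripts with a symbol whose profile correlated best with each tested gene. The genes and lists were chosen with earlier results of these data known, and 2 symbols of the lists are not reported here. Alternatives were DESeq2 1.42.0, RLE factors, library totals, no filter, the replicate number as a block, and libraries left out. Deviations from group means correlated at 0.58 to 0.73 between same-numbered libraries, so the numbers were taken to pair the libraries. Between others they correlated at -0.51 to -0.19. These values are no separate support, because centering on group means pushes them negative when the same-numbered ones are positive. The pairing comes from the data and is not stated in the labels.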

Additional observations from a re-analysis of the deposited data

How the results depend on the processing

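The fold changes of hnf1ba, foxa1, tfa and the liver list median were negative under every alternative run, including DESeq2, RLE factors and library totals. Leaving out 1 library at a time gave log2 fold changes from -4.10 to -2.78 for hnf1ba, from -3.77 to -1.53 for tfa and from -3.40 to -0.42 for foxa1, and from -1.65 to -0.35 for the liver list median. The value nearest 0 came without Basal replicate 3 in all 4. Without the third library of both groups they were -2.66 for hnf1ba, -1.06 for tfa, -0.52 for foxa1 and -0.36 for the liver list median. The 36 other transcripts described kept their direction in all 468 refits. That is no support, because all 36 came from the list selected on this comparison and the refits shared libraries. Of these values 26 moved by more than the spread between replicates, nearly all of them without Basal replicate 3 or without the third library of both groups.

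The number of transcripts with an unadjusted p under 0.05 was 538, but 845 without a filter, 4920 with the replicate block, 5338 with the replicate block and no filter, and 170 (without Insl3 replicate 3) to 1472 (without Basal replicate 3) with single libraries left out. Without Insl3 replicate 1 it was 885. After adjustment 0 passed in each edgeR fit with libraries left out, 1 in DESeq2 and 195 with the replicate block and no filter. The replicate block gave -3.27 for hnf1ba, -2.46 for tfa and -2.00 for foxa1 (the last without a filter). The standard errors with the block were 0.56, 0.89 and 0.88 in that order, against 0.72, 0.96 and 1.32 without the block. The block raised the transcripts of the liver list with an unadjusted p under 0.05 to 9, against 5 without it. Over all transcripts tested, the share called lower rose as well, to 6.13% against 0.938%. The rise was thus not particular to the list. On the filtered transcripts the block changed no call after adjustment. The causes of these differences were not tested. Depth limits hnf1ba and foxa1, which had as few as 1 count in a library, but not tfa.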
